A study of Drosophila melanogaster with 4 samples.

Results

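The 393 intermediate H4K16ac regions of the X chromosome are the regions of 3 to 10 kb in the authors' combined list, chosen by width, with a minimum of 3000 bp and a maximum just under 10000 bp. They are 393 of the 2204 X regions and of the 6550 regions of that list over the whole genome. On X, 1550 regions are narrower than 3 kb and 261 measure 10 kb or more; the latter are called broad regions here. The mark, acetylation of lysine 16 of histone H4 (H4K16ac), was mapped by ChIP-seq, in which chromatin is immunoprecipitated and its DNA sequenced, with the antibody H4K16ac(M), whose suffix is not explained in the sources used here. It has 2 ChIP replicates and 2 input replicates, all from untreated wild-type Drosophila melanogaster embryos of the strain Oregon-R-modENCODE aged 14 to 16 h. The chromatin came from whole formaldehyde-fixed embryos whose sex is not given, so a stretch acetylated in fewer cells and a stretch acetylated less in each cell cannot be told apart. Nothing in the labels tells if the replicates are separate collections of embryos, and their differences may be technical.

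In Drosophila the single X of males is dosage compensated. The male-specific lethal (MSL) complex first binds high-affinity sites on X and then spreads to transcribed genes nearby, where its acetyltransferase MOF places H4K16ac over gene bodies. Within another complex, NSL, the same enzyme acts at promoters of X and autosomes alike.

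Recovery of the intermediate regions was read from the separate region list of each ChIP replicate, called against the input of the same number per the labels. The X regions numbered 1384 in replicate 1, with 7.20 Mb, and 1290 in replicate 2, with 5.30 Mb; those of the combined list spanned 10.0 Mb. The narrowest region of a replicate list measured 1301 bp and that of the combined list 1001 bp. Read depth is unknown. Each region has a positive score with no stated unit, used here within a list or as a percentile (the share of that list scored no higher). The combined list was deposited for the series as a whole, so its regions and the replicate lists may share reads, and agreement between them is described, not tested. With 2 replicates no exact test over samples can pass 0.05, so the comparisons below carry no p-values. Which genes lie there is not analysed here.

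The intermediate regions covered 2082 kb in all. Their widths ran from 3003 to 9999 bp with a median of 4849 bp, and 136 measured less than 4 kb, 74 between 4 and 5 kb, 103 between 5 and 7 kb and 80 more. Just inside the lower limit lay chrX:15859968-15862970 (3003 bp, score 0.514), touched by replicate 1 only, and chrX:15312772-15315784 (3013 bp, score 0.565), touched by replicate 2 only. The widest region left out below it was chrX:18525670-18528668 (2999 bp, score 0.534), touched by replicate 1 only. At the upper limit chrX:9004186-9014184 (9999 bp, score 1.00) lay inside and chrX:13277980-13287986 (10007 bp, score 0.736) outside, and both replicates touched each of them. The 5 regions just inside this limit scored 0.731 to 1.12, with 43.5% to 73.6% of their length covered in replicate 2. The 5 just outside scored 0.567 to 1.06, with 19.2% to 91.0% covered.

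Most intermediate regions were recovered in replicate 1 and fewer in replicate 2. An overlap of 1 base counted as recovered. Replicate 1 touched 367 of 393 (93.4%, 95% Wilson interval 90.5 to 95.4) and replicate 2 touched 278 (70.7%, 66.1 to 75), a mean of 82.1% ± 16.0 (SD, n = 2). Both replicates touched 269 (68.4%, 63.7 to 72.8), replicate 1 alone 98, replicate 2 alone 9 and neither 17. The intervals cover counting error over regions only. Over all 2204 X regions, replicate 1 touched 47.5%, replicate 2 touched 31.8% and both touched 27.2%. The intermediate regions therefore lay above the X-wide shares in each replicate, and between the other width classes: both replicates touched 69 of 1550 X regions under 3 kb (4.45%) and all 261 broad regions. A wider region offers more bases to be touched, and regions under 1301 bp are narrower than any region of a replicate list.

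Inside the class, wider regions were recovered more often. Both replicates touched 60 of 136 regions of 3 to 4 kb (44.1%), 48 of 74 of 4 to 5 kb (64.9%), 85 of 103 of 5 to 7 kb (82.5%) and 76 of 80 of 7 to 10 kb (95%). Replicate 2 touched 49.3% of the narrowest of these groups and 95% of the widest, and replicate 1 touched 85.3% and 100%. All 17 regions found in neither replicate were narrower than 5 kb.

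**Figure D1:**
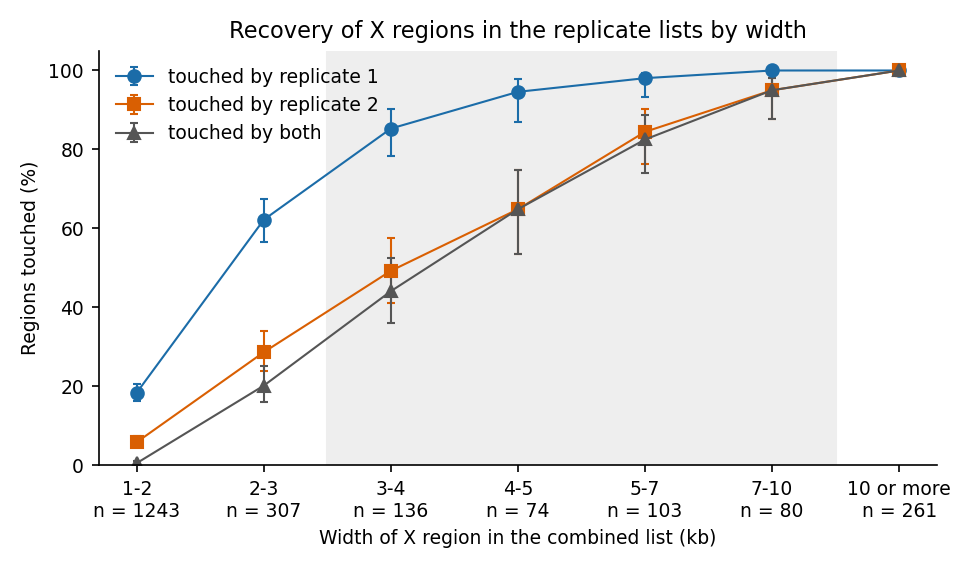
Percent of X regions of the combined list touched by replicate 1 (circles), replicate 2 (squares) and both (triangles), against width in kb; bars are 95% Wilson intervals and the shaded part holds the 393 intermediate regions. The share touched by both is 44.1% at 3 to 4 kb and 95% at 7 to 10 kb, and replicate 1 lies above replicate 2 in each class except the widest, where both reach 100%.

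In bases the gap between the replicates was wider. Replicate 1 covered 70.7% of the intermediate bases and replicate 2 covered 43.6%, a mean of 57.2% ± 19.2 (SD, n = 2). Bases inside regions of both replicates made up 37.2%, and 22.8% lay in neither. Broad regions had 72.4% of their bases in both replicates and X regions under 3 kb had 4.06%. When at least 50% of a region had to be covered in each replicate, 140 intermediate regions qualified (35.6%), against 19.6% of all X regions.

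The autosomal arms held 296 regions of the same width range, and these were recovered in shares of similar size. Replicate 1 touched 97.6% of them and replicate 2 touched 61.1%, against 93.4% and 70.7% on X. The autosomal regions were narrower, with a median of 3669 bp, and 27 measured 5 to 7 kb and 5 more, so the classes are better set side by side at like width. Among regions of 3 to 4 kb, replicate 1 touched 96.9% of 192 autosomal regions and 85.3% of 136 on X, and replicate 2 touched 54.7% and 49.3%. At 4 to 5 kb the shares were 98.6% of 72 autosomal regions and 94.6% of 74 on X in replicate 1, and 65.3% and 64.9% in replicate 2. In each replicate the share on X was thus the lower at 3 to 4 kb. In replicate 1 the 95% Wilson intervals there were 78.4 to 90.3 on X and 93.4 to 98.6 on the autosomal arms. Those of replicate 2 overlapped, at 41.0 to 57.6 and 47.6 to 61.6. The intervals cover counting error over regions within each replicate, not the spread between replicates. They are therefore no test of X against the autosomal arms. The median score ran the other way, at 0.573 on X and 0.524 on the autosomal arms for 3 to 4 kb.

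The 17 regions found in neither replicate were narrow and low in score for this class. Their median score, 0.512, was still above the median of the whole combined list, 0.490. The widest found in neither replicate was chrX:1599090-1603554 (4465 bp, score 0.520), 8.58 kb from a broad region. It was followed by chrX:6217804-6222192 (4389 bp, score 0.582) and chrX:4040528-4044704 (4177 bp, score 0.516). chrX:4834828-4838882 (4055 bp) scored 0.603, the highest of the 17, and lay 625 bp before a broad region. chrX:5787558-5791266 (3709 bp, score 0.491) completed the 5 widest. These 5 lay from 625 bp to 21.9 kb from a broad region, so some were close to one. Absence here means not called, since depth is unknown.

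A few wide regions were seen in a single replicate. chrX:9800250-9809992 spanned 9743 bp, but replicate 1 covered only 20.5% of it and replicate 2 none; its score was 0.515. chrX:19391618-19399452 (7835 bp) was 46.5% covered in replicate 1, by 2 separate calls, and lay 67 bp before a broad region. chrX:18515712-18523486 (7775 bp) and chrX:6470646-6478246 (7601 bp) were 72.9% and 74.8% covered in replicate 1, each by 2 calls, and chrX:4582570-4589402 (6833 bp) was 48.6% covered. All 5 were missing from replicate 2. The 9 regions seen by replicate 2 alone were at most 6211 bp wide.

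Scores of the intermediate regions lay between those of the other X classes and overlapped both. The median was 0.659 (quartiles 0.563 and 0.812, range 0.352 to 1.25), against 0.528 under 3 kb and 0.968 for the broad regions. Of the 393, 375 (95.4%) scored at or above the median of the whole combined list, 0.490, and 306 (77.9%) at or above the median of the X regions, 0.557. At the other end, 37 (9.41%) reached the median of the broad regions, and 116 (29.5%) scored no higher than the upper quartile of the X regions under 3 kb, 0.576. Wider regions scored higher, with a median of 0.573 at 3 to 4 kb and 0.823 at 7 to 10 kb (Spearman's rho 0.545 over 393 regions of the combined list, a description over regions that share libraries).

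Recovery followed the score closely. Both replicates touched 32 of the 98 lowest scored regions (32.7%), 54 of the next 98 (55.1%), 85 of the next 98 (86.7%) and 98 of the top 99 (99.0%). These groups also differed in width, with medians of 3631, 4154, 5165 and 6575 bp, so score and width were not separated here. By recovery, the median score was 0.732 for regions in both replicates, 0.568 in replicate 1 alone, 0.558 in replicate 2 alone and 0.512 in neither. The exception in the top group was chrX:13079038-13082388 (3351 bp, score 0.994), singled out after its values were seen. Replicate 1 covered 45.1% of it with a region at percentile 98.9 of its list, and replicate 2 had no region there.

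**Figure D2:**
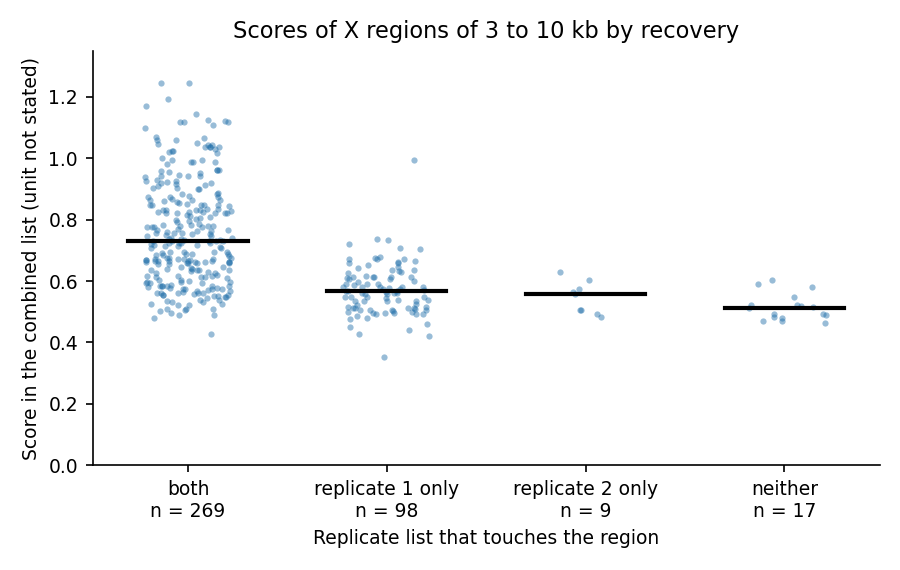
Score in the combined list (no stated unit) of each intermediate X region, grouped by the replicate lists that touch it; points are regions, spread sideways for sight, and bars are medians. The 269 regions in both replicates have a median of 0.732 and reach 1.25, while the 17 in neither lie between 0.463 and 0.603.

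In the replicate lists the partner of an intermediate region, the replicate region that shares most bases with it, was ranked by score within its whole list. The median percentile was 77.6 in replicate 1 (367 regions) and 66.6 in replicate 2 (278 regions), against 93.3 and 86.5 for the partners of broad regions. The partners of all X regions had medians of 74.8 and 70.9, so those of the intermediate regions lay a little above the X-wide value in replicate 1 and below it in replicate 2. The X-wide values rest on unlike mixes of width. Broad regions were 261 of the 1048 X regions with a partner in replicate 1 and 261 of the 700 in replicate 2. Across the 269 regions in both replicates, the partners' scores had a Spearman's rho of 0.640. The combined score had a rho of 0.857 with the score in replicate 1 (367 regions) and 0.693 with that in replicate 2 (278 regions). These are different sets of regions, so the 2 values are not compared like for like. Regions with no partner are missing from these values.

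The highest scored intermediate region was chrX:5210964-5216998 (6035 bp), with a score of 1.25 and partners at percentile 99.4 of replicate 1 and 93.7 of replicate 2. Replicate 1 covered 97.1% of it and replicate 2 covered 89.5%. The next, chrX:11474504-11481024 (6521 bp, score 1.25), had partners at percentiles 98.1 and 98.8. It was followed by chrX:5632954-5638722 (5769 bp, score 1.19) with percentiles 98.4 and 96.5. chrX:6417882-6427402 (9521 bp, score 1.17) was 99.2% covered in replicate 1 and 93.6% in replicate 2. chrX:3683330-3690620 (7291 bp, score 1.14) had partners at percentiles 99.0 and 88.8. All 5 scored above the upper quartile of the broad regions, 1.08, and 4 of them lay at most 2.02 kb from a broad region.

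The lowest scored regions were found mostly by replicate 1. chrX:4318544-4321814 (3271 bp) scored 0.352, at percentile 7.31 of the combined list, yet replicate 1 covered 3268 of its bases with a region at percentile 3.24 of its own list. chrX:7087858-7090990 (3133 bp, score 0.440) was covered to 97.4% by replicate 1. Replicate 2 touched neither. chrX:11650190-11653398 (3209 bp, score 0.420) and chrX:15957478-15961532 (4055 bp, score 0.427) were 60.4% and 38.9% covered in replicate 1 and untouched in replicate 2. Only chrX:9478996-9484042 (5047 bp, score 0.428) of these 5 was touched by both, over 57.1% and 26.8% of its length.

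Intermediate regions were usually larger than the replicate regions inside them. In replicate 1, 301 of the 367 were touched by a single region, 62 by 2 and 4 by 3. In replicate 2 these numbers were 230, 43 and 5 of 278. The partner lay wholly inside the intermediate region in 289 cases in replicate 1 (78.7%) and 247 in replicate 2 (88.8%), and its edge lay a median of 376 bp and 1008 bp inside the deposited edge. The median partner was 3284 bp wide in replicate 1 and 2284 bp in replicate 2. By the width limits used here, 209 partners in replicate 1 were of 3 to 10 kb and 158 were narrower, and in replicate 2 the numbers were 107 and 171. No partner in either replicate reached 10 kb. In 99 of the 269 regions in both replicates the partners measured 3 to 10 kb in each, and in 219 the partner of replicate 1 was the wider.

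The center of an intermediate region was better covered than its edges. Low coverage at the edge base follows from most partners lying wholly inside the region, so it is no separate result. Replicate 1 covered the midpoint of 323 regions (82.2%) and replicate 2 of 204 (51.9%). At the edge base itself the shares were 13.1% and 5.22% of 786 edges, and 1 kb inside they were 69.1% and 38.4%. Outside the edge the combined list has a gap by construction; 5 kb out, replicate 1 covered 43.4% of positions and replicate 2 covered 29.0%, above their shares of X as a whole, 32.1% and 23.6%.

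**Figure D3:**
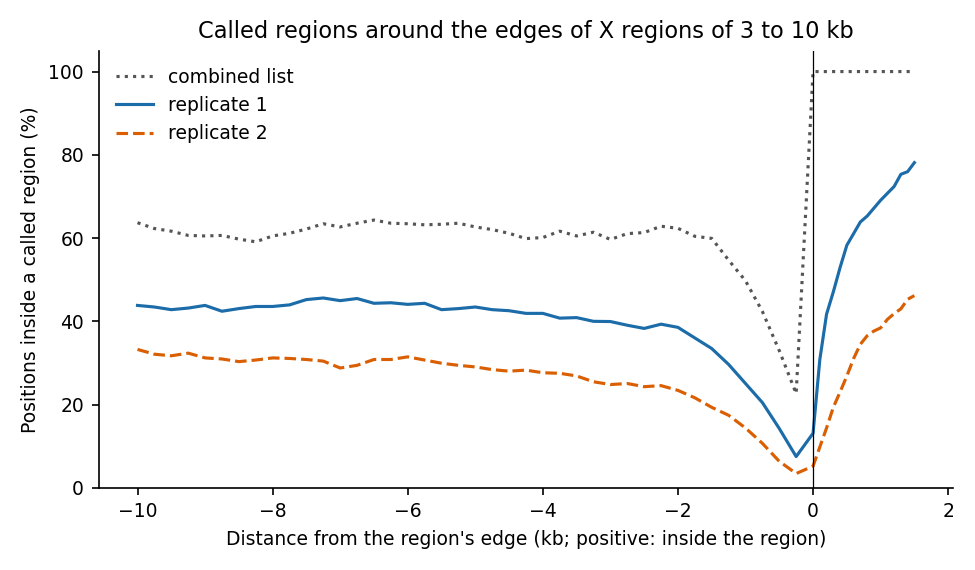
Percent of positions inside a called region of the combined list (dotted), replicate 1 (solid) and replicate 2 (dashed), against distance in kb from the edges of the 393 intermediate X regions, both edges pooled; positive distances lie inside. Coverage in replicate 1 rises from 13.1% at the edge to 69.1% at 1 kb inside, and in replicate 2 from 5.22% to 38.4%.

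Being touched by both replicates did not always mean sharing bases. Of the 269 regions, 16 had no base in common between the replicates, and 126 shared 50% or more of their length. The closest agreement was at chrX:19058434-19062460 (4027 bp, score 0.874), where 98.3% of the length lay in both replicates. chrX:6417882-6427402 followed at 93.6%, chrX:13633790-13640448 (6659 bp) at 92.2%, chrX:4573894-4580686 (6793 bp) at 91.8% and chrX:10983682-10990818 (7137 bp) at 91.0%. All 5 were touched by a single region in each replicate and scored 0.874 or more. Among the 16 without a common base, the first 5 by position were chrX:1546700-1551446, chrX:1693986-1702566, chrX:2220616-2229750, chrX:3606220-3611100 and chrX:3733024-3738266. In the widest of these, chrX:2220616-2229750 (9135 bp, score 0.571), replicate 1 had 3 regions over 64.8% of the length and replicate 2 had 1 over 17.3%. The scores of these 5 ran from 0.507 to 0.625.

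In the combined list the intermediate regions lay closer to the broad regions than narrower X regions did. Measured edge to edge, the median distance to the nearest broad region was 7.37 kb (quartiles 1.28 and 23.9 kb, range 3 bp to 462 kb). Broad regions lay a median of 6.91 kb from the next broad region, and X regions under 3 kb 21.0 kb. Within 10 kb of a broad region lay 224 intermediate regions (57.0%) and 29.8% of the X regions under 3 kb, while 20.4% of the bases of X outside broad regions lie in that range. Within 1 kb these values were 21.4%, 7.23% and 2.68%. A region counts by its nearer edge and a base by its own position, so shares of regions and of bases are not like measures. The values of the intermediate regions depended on the list and on the measure. With the 194 broad X regions of replicate 1 in place of those of the combined list, the median distance was 17.7 kb and 35.6% lay within 10 kb. With the 85 of replicate 2 it was 82.2 kb and 14.2%. Measured center to center in the combined list it was 20.9 kb and 7.12%. That measure includes part of the width of both regions, so even regions that touch can lie more than 10 kb apart. The lower share is thus largely given by the measure.

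**Figure D4:**
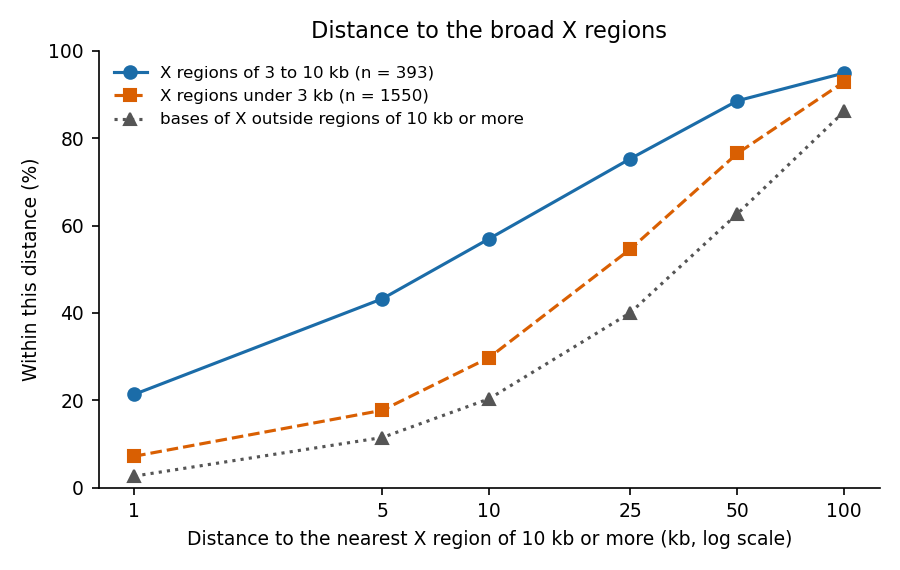
Percent within a given distance, in kb on a log axis, of the nearest X region of 10 kb or more, for the 393 intermediate regions (circles), the 1550 X regions under 3 kb (squares) and the bases of X outside broad regions (triangles). At 10 kb the values are 57.0%, 29.8% and 20.4%, and at 100 kb the intermediate regions stand at 94.9%.

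Score varied little with distance to a broad region. Spearman's rho between distance and score was -0.05, and between distance and width -0.12, over 393 regions. The median score was 0.670 for the 84 regions within 1 kb and 0.657 for the 20 at 100 kb or more. The share in both replicates was 76.2% within 1 kb, 68.6% at 1 to 5 kb, 61.1% at 5 to 10 kb, 63.9% at 10 to 25 kb, 63.5% at 25 to 50 kb, 76.0% at 50 to 100 kb and 75% beyond. The Wilson intervals of the nearest and farthest classes overlapped, at 66.1 to 84.0 and 53.1 to 88.8. They cover counting error over regions only and count neighbouring regions as separate, so they are no test of distance.

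The nearest neighbours of broad regions were separated from them by a few bases. chrX:18011984-18019028 (7045 bp) ended 3 bp before a broad region of 12.7 kb. chrX:8960956-8969216 (8261 bp) and chrX:12967474-12971596 (4123 bp) each ended 11 bp before one. chrX:12534900-12541528 (6629 bp) had a broad region on each side, 13 bp before and 49 bp after. chrX:15591854-15597628 (5775 bp) ended 21 bp before the widest X region of the combined list, of 100.3 kb. All 5 were touched by both replicates, with scores from 0.585 to 0.874.

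Some intermediate regions lay far from any broad region. chrX:22409912-22419690 (9779 bp) lay 462 kb from the nearest broad region and scored 1.04, above the broad median, with partners at percentiles 96.2 and 84.1. Next to it lay chrX:22394384-22398236 (3853 bp, score 0.683) at 447 kb, covered to 93.3% and 85.4% by the replicates. chrX:2846328-2851196 (4869 bp, score 0.615) lay at 206 kb and was found in replicate 1 only. chrX:2813914-2817188 (3275 bp, score 0.584) at 179 kb and chrX:8795450-8800192 (4743 bp, score 0.832) at 169 kb were in both replicates. Both replicates thus touched 4 of the 5 most isolated regions.

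Most intermediate regions had a close neighbour of some width. The median gap to the nearest region of the combined list was 407 bp, against 385 bp for broad regions and 1123 bp for X regions under 3 kb, and 289 intermediate regions (73.5%) had a neighbour less than 1 kb away. Of the 786 direct neighbours, 446 were regions under 3 kb (56.7%, against 70.3% of all X regions), 186 were intermediate (23.7%, against 17.8%) and 154 broad (19.6%, against 11.8%). A broad region was the direct neighbour on at least 1 side for 138 intermediate regions and on both sides for 16. Joining X regions less than 1 kb apart left 104 intermediate regions (26.5%) alone, put 127 together with a broad region and placed another 97 in joined stretches of at least 10 kb without one.

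A run here is a series of intermediate regions with no broad region between them, whatever narrower regions lie there. The broad regions leave 262 stretches of X for the 393, so runs of several regions arise from the counts alone. The 393 formed 157 runs, of which 58 held a single region and 60 held 3 or more, for 257 regions in all. Grouping beyond that was not tested. The longest run held 13 intermediate regions and 29 narrower ones over 295 kb, chrX:3395822-3690620, and the next longest held 8. Both replicates touched all 13, whereas of the 8 regions in each of the next 3 runs both touched 4.

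The 13 regions of the longest run differed widely in score and in coverage. The run opened with chrX:3395822-3399978 (4157 bp, score 0.602), 8.22 kb after a broad region, and chrX:3462152-3467924 (5773 bp, score 0.777). After chrX:3561778-3565878 (score 0.637), chrX:3574968-3578032, chrX:3581146-3584470 and chrX:3587984-3591440 followed closely, each at most 3457 bp wide and with scores from 0.549 to 0.583. chrX:3591530-3596968 (5439 bp, score 0.875) stood 89 bp after them and was covered to 97.2% and 74.9% by the replicates. chrX:3600414-3605276 (score 0.633) and chrX:3606220-3611100 (score 0.507) came next, and the latter had no base in both replicates. chrX:3640740-3643918 (3179 bp) scored 0.848 in spite of its small width. The run closed with chrX:3670300-3674750 (score 0.540), chrX:3674944-3682904 (7961 bp, score 1.04) and chrX:3683330-3690620 (score 1.14), the last 2.02 kb before a broad region. The 3 highest scores of the run were thus those of the last pair and of the region from 3591530.

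Along X the intermediate regions were spread over the whole sequence, more densely in its middle. Counted from the first base in 4 stretches of equal length, which end at 5.61, 11.2, 16.8 and 22.4 Mb, they numbered 84, 124, 110 and 75, and the broad regions 63, 59, 77 and 62. In the 22 full windows of 1 Mb their number ranged from 6 to 27 with a median of 19. Broad regions numbered 7 to 18 per window, and over the 22 windows, which share the chromosome and the libraries, the counts had a Spearman's rho of 0.389. Both replicates touched 70.2%, 63.7%, 74.5% and 65.3% of the intermediate regions in the 4 stretches. Median scores lay between 0.642 and 0.663 there, so the stretches differed little in score.

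**Figure D5:**
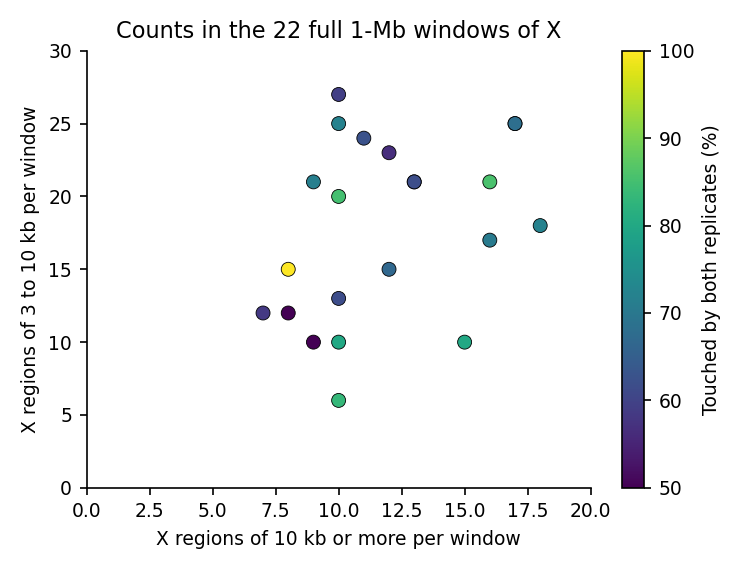
Number of intermediate X regions against number of X regions of 10 kb or more in each of the 22 full 1-Mb windows of X; color gives the percent of the intermediate regions touched by both replicates, and at 2 places a pair of windows with equal counts coincides. Counts of intermediate regions run from 6 to 27, and windows with the same number of broad regions differ: 10 broad regions go with 6 intermediate regions in the sparsest window and with 27 in the densest.

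The densest window, from 6 to 7 Mb, held 27 intermediate regions over 149 kb, of which replicate 1 touched 24, replicate 2 touched 17 and both 16. They ranged from chrX:6196500-6199534 (3035 bp, score 0.646) to chrX:6149690-6159600 (9911 bp, score 0.851), which lies 173 bp after a broad region of 30.3 kb. chrX:6546352-6556248 (9897 bp, score 0.822), chrX:6971726-6981520 (9795 bp, score 0.685) and chrX:6417882-6427402 were of like width, so 4 of the 27 came within 500 bp of the upper limit. chrX:6603996-6612942 (8947 bp, score 0.963) and chrX:6613044-6620514 (7471 bp, score 0.575) lay 101 bp apart. The first was covered to 94.8% and 66.5% by the replicates and the second to 49.4% and 21.0%, so direct neighbours could differ strongly. chrX:6902742-6909318 (6577 bp, score 1.04) had its partner in replicate 1 at percentile 98.6.

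The sparsest full window, from 21 to 22 Mb, held 6 intermediate regions, and their median score of 0.857 was the highest of any full window. chrX:21238004-21244992 (6989 bp, score 0.926) lay between broad regions, 277 bp after the first and 131 bp before the second. chrX:21871302-21874584 (score 0.885), chrX:21875028-21880822 (score 0.864) and chrX:21883984-21888832 (score 0.849) stood close together and were covered by each replicate over 77.1% to 89.4% of their length. chrX:21006218-21011578 (score 0.732) was touched by both replicates, and chrX:21274096-21279174 (score 0.521) by replicate 1 only. The region missing from replicate 2 was thus also the lowest scored of the 6.

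The share of intermediate regions in both replicates was lowest in the windows from 7 to 8 Mb (6 of 12) and from 20 to 21 Mb (5 of 10), and highest from 3 to 4 Mb (15 of 15). The latter window holds the longest run, has the fewest bases in broad regions of any full window, 131 kb, and the largest median distance to a broad region of any full window, 74.5 kb. It was singled out after its values were seen. The longest stretches of X without an intermediate region were chrX:21279175-21871301 (592 kb), chrX:20366323-20929853 (564 kb) and chrX:2851197-3395821 (545 kb). They were not empty of the mark: they held 3, 3 and 2 broad regions and 14, 26 and 15 regions under 3 kb.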

How the data were processed

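Per the labels, each ChIP replicate has a region list called with the input of its number as control, and a combined list belongs to the series. The deposited score of a region has no stated unit, per the file headers. The submitters' processing notes name Bowtie 0.12.7, while the region caller, its threshold and the making of the combined list were not given in the sources used here. Coordinates are FlyBase release 5, per the file headers, counted from 1. Gene positions of that release were not used here, so no genes were placed. The files hold no read counts, so depth per sample is unknown and no depth-based precision can be given.

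Regions of 3 to 10 kb on X were taken from the combined list. Overlaps, coverage (overlapping bases counted once), edge-to-edge distances, gaps and 1-Mb windows (by midpoint) were computed with Python 3.11.15, numpy 2.4.6, pandas 2.3.3 and scipy 1.17.1, after the interval functions were tested on simulated data. Within a distance means less than that distance. No statistical test was run over regions. The regions, lists and limits were chosen with earlier results of these data known.

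Regions are named by rule: the 5 at each extreme of width, score, distance to a broad region and shared bases, the 5 widest found in neither replicate or in 1, the longest run, and the densest and sparsest window, whose members are given in part, as are the narrowest. Alternatives changed the overlap, score, width, merging and window rules and left out each replicate.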

Additional observations from a re-analysis of the deposited data

How the results depend on the processing

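Of 35 alternatives over 7 results, 12 stayed inside the 95% interval of the reported value (Wilson for shares, order statistics for medians, and for bases the interval width of the share of members with 50% or more shared) and 23 left it; none of these values has a test. The share in both replicates, 68.4%, was 35.6% and 2.29% when 50% or 90% of a region had to be covered, 50.1% with the higher scored replicate regions only, 92.9% for the higher scored members, 40.0% after regions under 1 kb apart were merged and 81.3% at 4 to 10 kb. Without replicate 1 or 2 it ranged from 70.7% to 93.4%. The share of bases in both, 37.2%, ranged from 43.6% to 70.7% with a replicate left out and was 56.1% for the higher scored members and 30.7% with the higher scored replicate regions. The median distance, 7.37 kb, was 20.9 kb center to center and 26.9 kb to the higher scored broad regions; to broad regions of a single replicate list it ranged from 17.7 kb to 82.2 kb, those lists holding 194 and 85 such regions. The share within 10 kb, 57.0%, was 7.12% and 31.6% in the first 2 settings and ranged from 14.2% to 35.6% in the others. The median score, 0.659, was 0.732 for regions in both replicates and 0.729 at 4 to 10 kb. The median percentile, 86.5 in the combined list, ranged from 66.6 to 77.6 in the replicate lists. Stricter rules give lower recovery by construction. Leaving out a replicate can only raise a share in both. Likewise, distances to only the higher scored broad regions, or from center to center, can only be longer. For the other values the cause was not tested. No paired analysis was possible because none of these results comes from a test; classes are set side by side within each replicate. A region missing from a list is a region not called.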

Other observations

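The nearest broad region lay before the intermediate region (at lower coordinates) in 223 cases and after it in 170. For broad regions the numbers were 129 and 132, and for X regions under 3 kb 739 and 811. This was noticed after the values were seen and was not tested.

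By arm, replicate 2 touched 43 of 68 autosomal regions of 3 to 10 kb on 2L and 58 of 86 on 2R. On 3L it touched 29 of 64 and on 3R 51 of 78, against 278 of 393 on X. Replicate 1 touched 66, 86, 63 and 74 of the autosomal regions. These counts are not at like width, since the autosomal regions were narrower. In replicate 2 the share touched on X was the lower in each width class, but the 95% Wilson intervals overlapped in each. It was 49.3% against 54.7% at 3 to 4 kb and 64.9% against 65.3% at 4 to 5 kb. At 5 to 7 kb it was 84.5% against 88.9% of 27 autosomal regions, and at 7 to 10 kb 95% against 100% of 5. By bases covered in replicate 2 the order was mixed. X was the lower at 3 to 4 kb (26.1% against 31.5%) and at 7 to 10 kb (53.1% against 58.2%). It was the higher at 4 to 5 kb (37.8% against 37.3%) and at 5 to 7 kb (49.9% against 39.4%).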
